A study of Arabidopsis thaliana with 6 samples.

Results

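Tryptophan is the starting point of the indolic defence compounds of Arabidopsis, and the 34 genes described here cover its synthesis, its conversion to indole glucosinolates and camalexin, the MYB factors that switch these steps on, and the beta-glucosidases and myrosinases that cleave the products in roots. The genes were chosen as a list of loci by their known roles. The rule uses no measured value, but the list was drawn up with earlier results of these data known. Of the 34, 33 had a row among the 24379 genes of the deposited table. CYP71A13, a camalexin gene, is not analysed here. Expression was measured by RNA-seq in roots of 7-day-old wild type (WT) seedlings grown in hydroponic MGRL nutrient solution, in 3 samples treated with Al and 3 control samples. The paper describes the treatment as 25 µM AlCl3 for 3 h and the tissue as about 0.5 cm of the root from the tip, while the labels name roots only. No mutant, transgene or second treatment enters the comparison, and the question it answers is which of these genes changed in level after Al treatment. Nothing in the labels says that the replicates came from separate cultures, so the p-values measure the spread between these samples, which may be technical. In such bulk samples, fewer cells of a type and less RNA per cell cannot be told apart.

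In this pathway, anthranilate synthase and the enzymes that follow it build tryptophan, and the cytochromes CYP79B2 and CYP79B3 turn tryptophan into indole-3-acetaldoxime. That oxime is a branch point. CYP83B1 and the core enzymes lead it to indole glucosinolates, which the CYP81F cytochromes and the IGMT methyltransferases then modify on the indole ring. CYP71A12, CYP71A13 and CYP71B15 lead it to camalexin, the main phytoalexin of Arabidopsis. Glucosinolates are stored inactive, and myrosinases release their toxic products when cells are broken or attacked.

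The values are FPKM, fragments scaled to transcript length and to the mapped fragments of the sample, so that levels can be compared between genes. Depth, estimated from the steps between low values, was 21750000 to 21900000 fragments per sample. ALMT1, the Al-activated malate transporter, served as a check of the treatment label and rose from 0.57 to 15.4 FPKM (log2 change 3.38, SE 0.12, adjusted p = 5.17e-08 by limma). No control sample reached 1 FPKM of ALMT1, so it entered the test through the Al samples alone. Of 7 root markers tested, 5 were called lower after Al treatment (71.4%, against 38.5% of all genes tested). The summed level of all 8 root markers (with WOX5, which was below the filter) was 106 to 108 FPKM in controls and 81.1 to 83.0 FPKM in Al samples. The 4 shoot markers summed to 5.46 to 8.17 FPKM in controls and 5.58 to 10.5 FPKM in Al samples, with CAB3 and LHCB2.1 near 0. Control sample 3 was the lowest control for 24 of the 32 members tested (75.0%, against 30.7% of all genes tested), and this held for all 14 members of tryptophan synthesis, the CYP79B step and the core pathway. Al sample 2 was the highest Al sample for 12 of these 14 (85.7%, against 38.3% of all genes tested). The part of these samples in the results was not tested, and calls that depend on one of these samples are given with and without it.

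Of the 32 members tested, 18 were higher after Al treatment, or 56.2%, whereas 21.3% of the 18463 genes tested were called higher. Another 8 members were lower (25%, against 38.5% of all genes), and 6 were not called at an adjusted p under 0.05. In either direction, 59.8% of all genes were called. Because the list was drawn up with earlier results of these data known, the shares of members are not those of a blind choice. When only changes of 1 or more on the log2 scale were counted, 7 members were higher and 2 lower, against 6.45% and 2.88% of all genes. The median log2 change of the members was 0.39 and that of all genes tested -0.13. MYB122 and CYP71A12 reached 1 FPKM in 1 control sample each and so passed the filter mainly through the Al samples, where they are high. When every sample had to reach 1 FPKM, 16 members were higher and 8 lower. The count of lower members was 5 without control sample 1 and 5 without control sample 2. Scaling the samples by median ratios moved the median change of all genes from -0.13 to -0.00 and the lower share of all calls from 64.4% to 48.5%. It left the 18 higher members called, and 5 of the 8 lower ones. The values of control and Al samples did not overlap for 24 members, 18 with Al higher and 6 with Al lower (66.3% of all genes did not overlap, 23.3% with Al higher and 42.9% with Al lower).

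**Figure D1:**
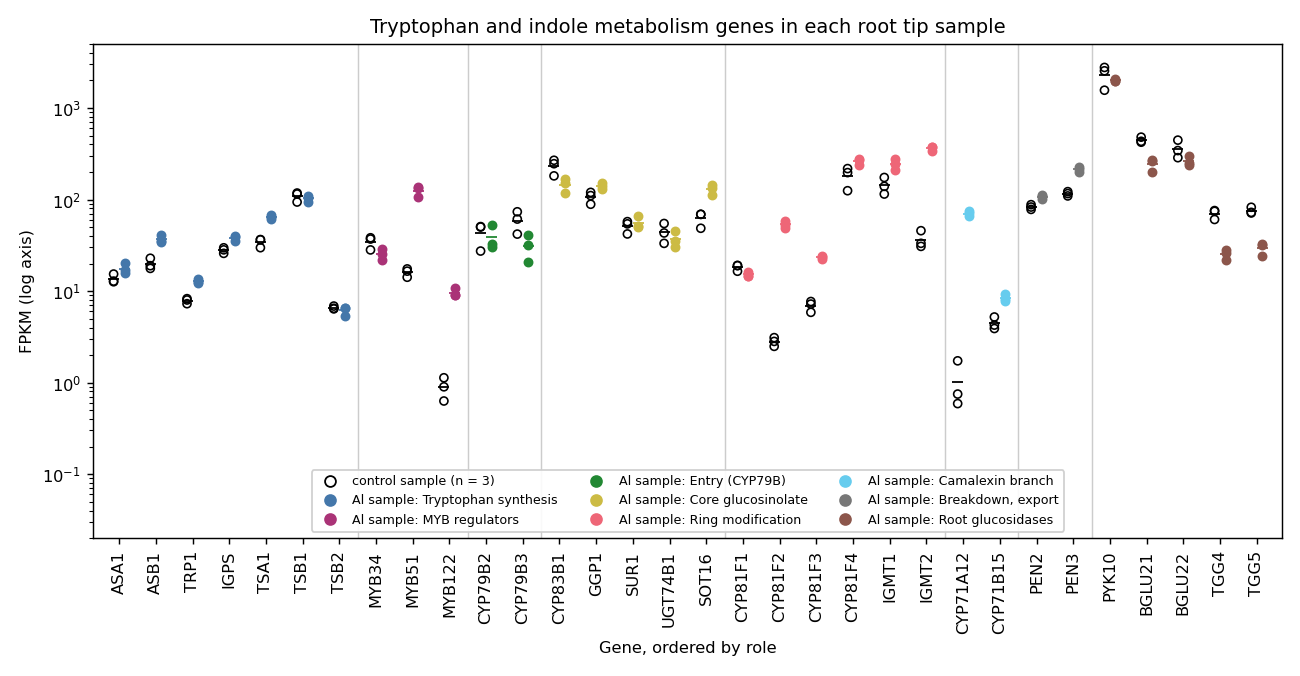
FPKM on a log axis of the 32 members tested in each of the 3 control samples (open circles) and 3 Al samples (filled circles, coloured by role), with a dash at each group mean. MYB51, MYB122, CYP81F2, CYP81F3, IGMT2 and CYP71A12 stand well above their controls, while TGG4 and TGG5 stand below theirs.

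**Figure D2:**
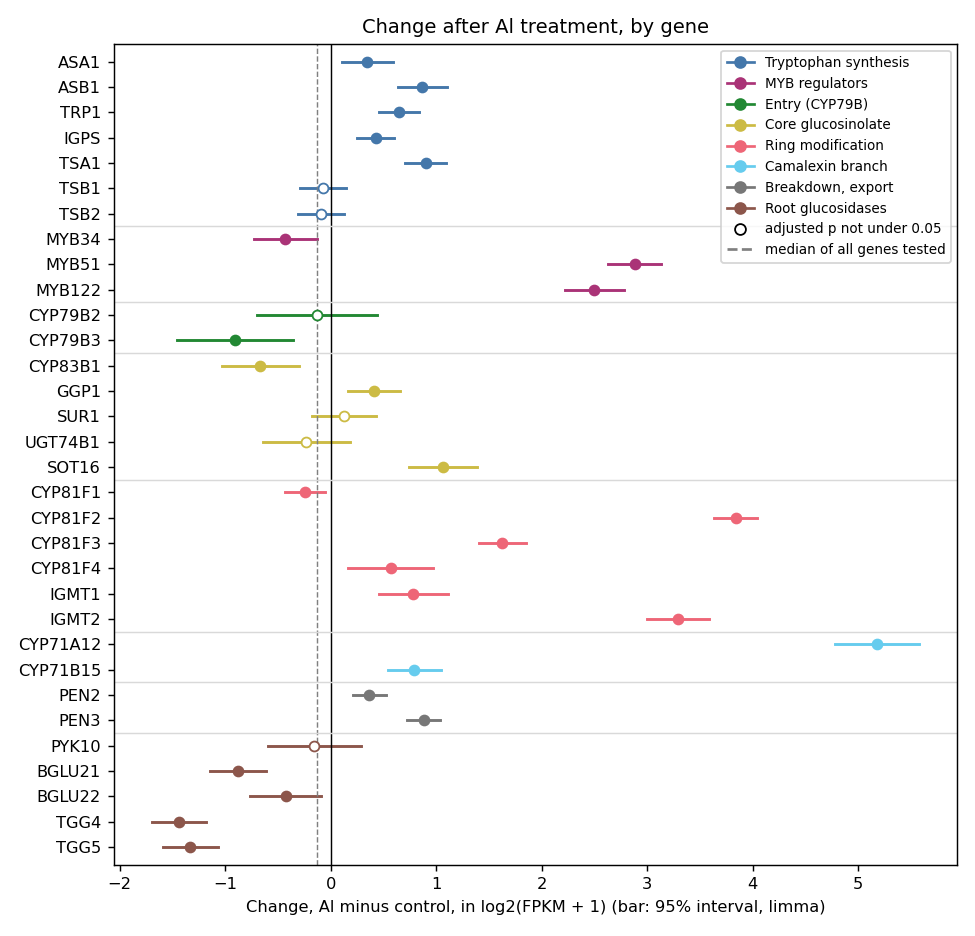
Log2 change (Al minus control, on the log2(FPKM + 1) scale) of each member tested with its 95% interval from limma, grouped by role. Open symbols mark genes not called, the dashed line marks the median of all genes tested (-0.13), and the changes run from -1.44 for TGG4 to 5.18 for CYP71A12.

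The 250 bases before the annotated start of each gene were read from the reference genome (RefSeq, TAIR10.1, whose coordinates equal those of the deposited table for all 33 members in it). They were searched for the W-box core TTGAC on both strands (GTCAA on the printed strand when reversed), the sequence that WRKY factors recognise. Of the 7 members that rose by at least 1 on the log2 scale, MYB51, CYP81F2, IGMT2 and CYP71A12 hold it. These 4 are shown for that reason, with each core in capitals. MYB122, CYP81F3 and SOT16 rose by at least 1 without a core, and of these MYB122 is shown. The paralogues TGG4 and TGG5 are shown because they fell together and their promoters are alike. The windows are chr1:6389149-6389398 (plus strand), chr5:23187590-23187839 (plus), chr1:7396824-7397073 (minus), chr2:13101372-13101621 (minus), chr1:27855328-27855577 (plus), chr1:17491481-17491730 (plus) and chr1:19087134-19087383 (plus), each printed 5′ to 3′ toward the gene.
MYB51: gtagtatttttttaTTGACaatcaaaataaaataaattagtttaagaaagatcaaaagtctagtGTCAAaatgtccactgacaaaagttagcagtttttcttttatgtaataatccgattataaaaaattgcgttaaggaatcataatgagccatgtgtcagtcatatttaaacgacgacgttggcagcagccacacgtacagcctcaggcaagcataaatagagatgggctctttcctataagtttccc
CYP81F2: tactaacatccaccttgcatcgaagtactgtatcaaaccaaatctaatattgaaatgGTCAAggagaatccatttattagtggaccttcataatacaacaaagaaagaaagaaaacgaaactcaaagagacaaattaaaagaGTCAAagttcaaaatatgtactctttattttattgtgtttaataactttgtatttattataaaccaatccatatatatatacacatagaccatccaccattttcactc
IGMT2: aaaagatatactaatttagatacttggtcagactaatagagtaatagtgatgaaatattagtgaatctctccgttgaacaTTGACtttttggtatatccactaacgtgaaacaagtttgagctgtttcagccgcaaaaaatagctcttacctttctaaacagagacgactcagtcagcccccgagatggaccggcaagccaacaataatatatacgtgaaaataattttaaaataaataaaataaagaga
CYP71A12: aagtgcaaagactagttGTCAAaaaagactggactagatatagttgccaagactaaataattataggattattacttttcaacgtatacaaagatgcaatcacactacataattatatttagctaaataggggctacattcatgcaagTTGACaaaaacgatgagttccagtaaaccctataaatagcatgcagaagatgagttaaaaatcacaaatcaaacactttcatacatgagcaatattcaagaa
MYB122: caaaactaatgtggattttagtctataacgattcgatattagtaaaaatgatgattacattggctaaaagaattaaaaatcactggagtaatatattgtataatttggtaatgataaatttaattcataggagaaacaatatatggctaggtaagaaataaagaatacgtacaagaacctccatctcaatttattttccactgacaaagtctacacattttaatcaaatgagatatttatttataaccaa
TGG4: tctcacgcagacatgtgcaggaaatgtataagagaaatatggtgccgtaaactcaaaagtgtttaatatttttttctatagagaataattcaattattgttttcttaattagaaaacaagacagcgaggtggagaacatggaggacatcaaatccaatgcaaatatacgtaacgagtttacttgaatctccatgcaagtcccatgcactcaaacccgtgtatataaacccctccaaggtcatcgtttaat
TGG5: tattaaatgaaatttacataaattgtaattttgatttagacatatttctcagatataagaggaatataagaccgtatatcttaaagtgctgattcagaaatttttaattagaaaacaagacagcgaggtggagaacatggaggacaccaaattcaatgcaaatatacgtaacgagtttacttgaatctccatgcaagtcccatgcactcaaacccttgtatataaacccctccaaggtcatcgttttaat

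At least 1 W-box core lay in 14 of the 18 promoters of higher members (77.8%), in none of the 8 of lower members and in 2 of the 6 of members not called. The share was 45.3% over 24169 promoters of the same length. Among all genes tested it was 53.9% for those called higher, 42.9% for those called lower and 44.5% for the others. At least 2 cores were found for 7 of the 18 higher members (38.9%), against 19.8% of all genes called higher. In MYB51 the cores begin 236 and 186 bases before the start, in CYP81F2 193 and 108 bases, in CYP71A12 233 and 102 bases and in IGMT2 170 bases. Besides MYB122, the higher members CYP81F3, SOT16 and CYP71B15 had no core in this window. PYK10 and SUR1, which were not called, had 2 each. The promoters of TGG4 and TGG5 share an identical run of 62 bases that ends 34 and 35 bases before their starts, the longest among the 5 pairs of related genes compared (8 to 22 bases in the others). The G-box CACGTG, which bHLH factors such as MYC2 recognise, was found in 2 of the 34 promoters (IGPS and SUR1) and in 6.9% of all promoters. These matches describe the letters of the windows only.

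**Figure D3:**
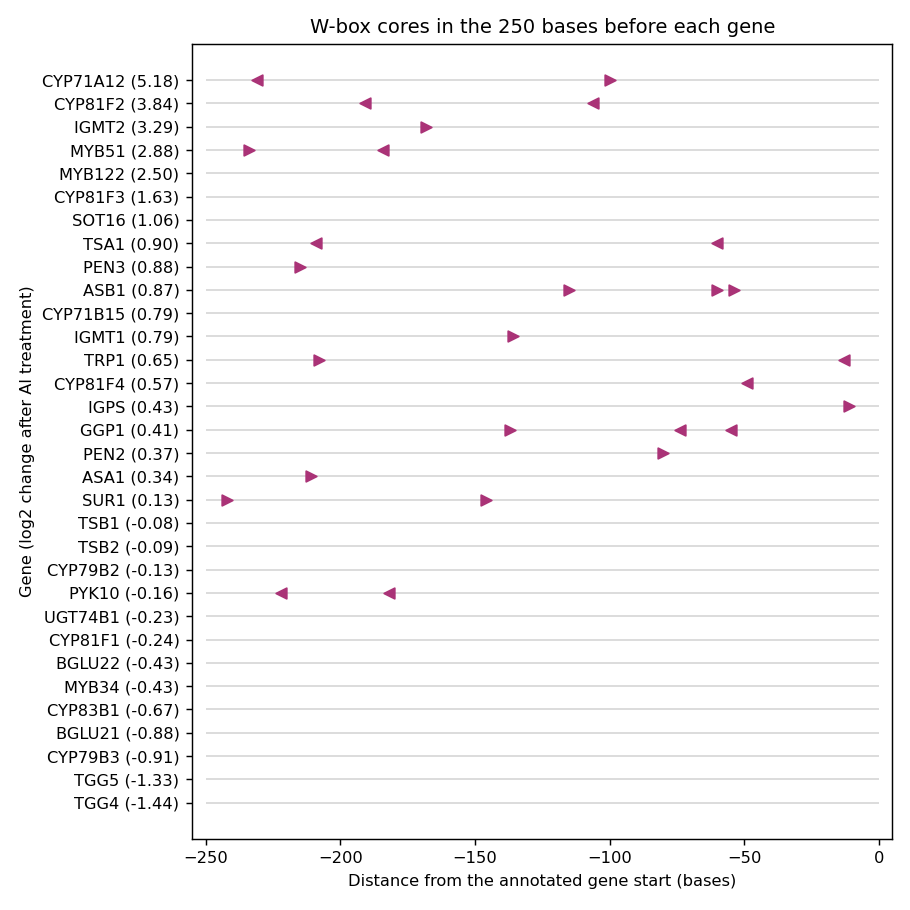
Positions of W-box cores (arrowheads, pointing right for TTGAC on the gene's strand and left for the other strand) in the 250 bases before each tested member, with distance from the gene start in bases on the x axis and genes ordered by log2 change. The 8 genes called lower carry none, and 14 of the 18 called higher carry at least 1.

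In tryptophan synthesis, 5 of 7 members rose (71.4%, against 21.3% of all genes) and none fell (38.5% of all genes). TSA1 (AT3G54640), the alpha subunit of tryptophan synthase, stood at 36.5, 36.4 and 29.8 FPKM in control samples 1 to 3 and at 61.1, 67.7 and 64.7 FPKM in Al samples 1 to 3. All Al samples were thus above all controls, and the change was 0.90 on the log2 scale (SE 0.09, adjusted p = 3.09e-05, limma). ASB1 (AT1G25220), the beta subunit of anthranilate synthase, rose by 0.87 (SE 0.10, adjusted p = 0.000101), but 41.3% of the 50-base stretches of its transcript also occur in other genes, 31.3% in AT1G24807 alone, so its level is uncertain. TRP1, the phosphoribosyltransferase that follows, rose by 0.65, IGPS, which makes indole-3-glycerol phosphate, by 0.43, and ASA1, the alpha subunit of anthranilate synthase and the feedback-controlled first enzyme, by 0.34. The call for ASA1 (adjusted p = 0.0203) was lost without control sample 1, without control sample 3 and without Al sample 2 (adjusted p 0.0598 to 0.079). Antisense genes overlap ASA1, ASB1, TRP1 and IGPS, and further on CYP81F1, CYP81F4 and PYK10, and whether the counting used strand is not given in the sources used here.

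The partner of TSA1 in the last step was not called. TSB1 (AT5G54810), the main beta subunit of tryptophan synthase and by far the most abundant transcript of the group, held 114.9, 118 and 93.9 FPKM in controls and 94.6, 104 and 110.5 FPKM in Al samples, with overlap between the groups. Its change of -0.08 had a 95% interval from -0.29 to 0.14 (adjusted p = 0.52). TSB2, its paralogue at 5.38 to 6.86 FPKM in the 6 samples, changed by -0.09 (interval -0.31 to 0.13, adjusted p = 0.45). Both changes turned positive, at 0.07 and 0.04, under median-ratio scaling. The ratio of TSB1 to TSB2 was 16.5 ± 1.73 (SD, n = 3) in controls and 16.8 ± 0.90 in Al samples (exact two-sided permutation p = 0.8).

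The 3 MYB factors that activate indole glucosinolate genes moved in different directions. MYB51 (AT1G18570) was measured at 14.2, 17.5 and 16.5 FPKM in controls and at 138, 132 and 106 FPKM in Al samples, so the lowest Al sample lay far above the highest control. The rise was 7.80-fold (log2 change 2.88, SE 0.11, adjusted p = 7.19e-08, limma). MYB122 (AT1G74080) rose from 0.63, 1.13 and 0.90 FPKM to 9.12, 10.7 and 9.08 FPKM, again without overlap (10.9-fold, log2 change 2.5, SE 0.12, adjusted p = 3.54e-07), and its lowest sample corresponds to 21 fragments, a counting error of 21.8%. MYB34 (AT5G60890), which is known for the basal control of the pathway in roots, went the other way, with 38.2, 37.0 and 28.2 FPKM in controls and 25.1, 28.9 and 21.8 FPKM in Al samples. These groups overlap, since control sample 3 lay below Al sample 2, and the fall of 0.43 (adjusted p = 0.0187) was no longer called under median-ratio scaling (adjusted p = 0.0874). It was also lost with no filter, without control sample 1 or 2 and without Al sample 3 (adjusted p 0.0662 to 0.0738). MYB34 was the most abundant of the 3 in every control, and MYB51 in every Al sample. The ratio of MYB51 to MYB34, a pair picked after the values were seen and so given without a test, was 0.37, 0.47 and 0.59 in controls and 5.49, 4.56 and 4.85 in Al samples.

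At the entry from tryptophan, the 2 closely related cytochromes differed in their changes. CYP79B3 (AT2G22330) stood at 61.2, 73.5 and 41.9 FPKM in controls and 20.9, 40.6 and 32.1 FPKM in Al samples, close to overlap between control sample 3 and Al sample 2. It fell by 0.91 on the log2 scale (SE 0.24, adjusted p = 0.0105), a call that was lost with no filter on low values (adjusted p = 0.0637). CYP79B2 (AT4G39950) ranged from 27.4 to 50.6 FPKM in controls and from 30.6 to 52.4 FPKM in Al samples, and its change of -0.13 (interval -0.70 to 0.44, adjusted p = 0.676) was of no fixed sign, turning to 0.01 under median-ratio scaling and to 0.01 to 0.02 without control sample 1, control sample 2 or Al sample 1. The ratio of CYP79B2 to CYP79B3 was 0.72 ± 0.09 (SD, n = 3) in controls and 1.26 ± 0.22 in Al samples, without overlap. The exact two-sided permutation p was 0.1, the smallest that 3 samples against 3 can give, and 0.25 when adjusted over 5 pairs.

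Among the 5 core enzymes of glucosinolate synthesis, 2 rose (40%, against 21.3% of all genes), 1 fell (20%, against 38.5%) and 2 were not called. SOT16 (AT1G74100), the sulfotransferase that completes the glucosinolate core, was at 68.9, 68.9 and 48.5 FPKM in controls and at 113, 145 and 133 FPKM in Al samples. Every Al sample exceeded every control (2.1-fold, log2 change 1.07, SE 0.14, adjusted p = 0.000206, limma). GGP1, a peptidase that trims the glutathione conjugate, rose by 0.41 (SE 0.11, adjusted p = 0.01). CYP83B1 (AT4G31500), which commits the oxime to glucosinolates, was the most abundant core transcript in every control. It fell from 246, 268 and 181 FPKM to 117, 152 and 167 FPKM (log2 change -0.67, SE 0.16, adjusted p = 0.00603 by limma). In Al samples 1 and 2 it lay below GGP1, which stood at 141 and 153 FPKM there. SUR1, the C-S lyase (0.13, interval -0.18 to 0.43, adjusted p = 0.44), and UGT74B1, the glucosyltransferase (-0.23, interval -0.64 to 0.18, adjusted p = 0.3), were not called. SUR1 lost its sign without control sample 3 (-0.01), and UGT74B1 ranged from -0.41 without control sample 3 (adjusted p = 0.0568) to -0.06 without control sample 2. The summed FPKM of the 5 core genes was 495 ± 90.8 (SD, n = 3) in controls and 509 ± 52.7 in Al samples.

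**Figure D4:**
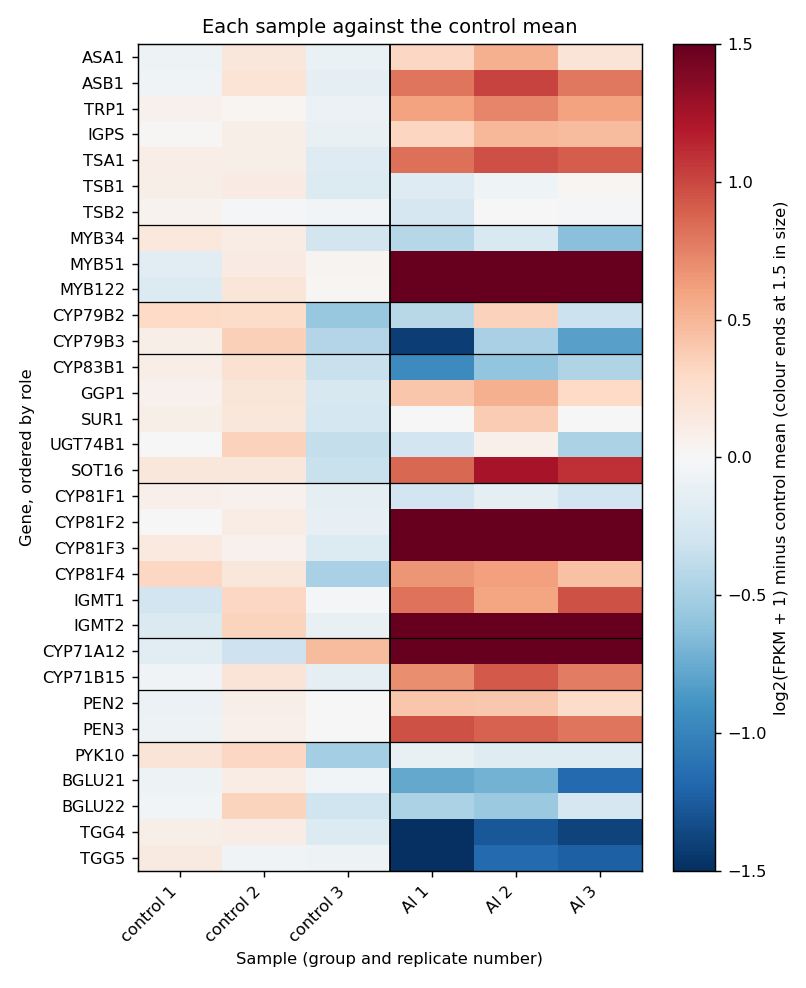
Log2(FPKM + 1) of each member tested in each sample, minus its control mean (colour, ending at 1.5 in size), with controls left and Al samples right of the vertical line. Control sample 3 is pale blue through the tryptophan, entry and core genes, the lowest control for all 14 of them, and the rows of MYB51, MYB122, CYP81F2, CYP81F3, IGMT2 and CYP71A12 are at the end of the scale in every Al sample.

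Of the 6 enzymes that modify the indole ring of glucosinolates, 5 rose (83.3%, against 21.3% of all genes) and 1 fell, and their summed FPKM was 387 ± 62.1 (SD, n = 3) in controls and 959.7 ± 44.4 in Al samples. CYP81F2 (AT5G57220), the hydroxylase known from responses to pathogens, was measured at 2.82, 3.10 and 2.49 FPKM in controls and at 58.0, 49.4 and 53.0 FPKM in Al samples. The rise was 19.1-fold (log2 change 3.84, SE 0.09, adjusted p = 4.87e-09, limma), with a narrow spread within both groups. CYP81F3 (AT4G37400), a relative that acts on the same ring position, rose from 7.69, 7.21 and 5.86 FPKM to 23.5, 24.0 and 22.6 FPKM (3.38-fold, log2 change 1.63, SE 0.10, adjusted p = 1.25e-06). CYP81F4, which hydroxylates the ring nitrogen, was the most abundant of the 4 in controls, at 125 to 218 FPKM, and held 237 to 278 FPKM in Al samples. Its change of 0.57 (adjusted p = 0.0207) was not called without Al sample 1 or 2 or with no filter (adjusted p 0.0577 to 0.0901), and it was 0.33 without control sample 3 (adjusted p = 0.0135). CYP81F1 went slightly down, by -0.24 (adjusted p = 0.0307), and lost this call under median-ratio scaling (adjusted p = 0.3) and in 6 other alternatives. CYP81F3, CYP81F4 and CYP81F1 lie in this order on chromosome 4, at 17583992 to 17586442, 17590772 to 17592920 and 17597110 to 17598958, all on the plus strand, whereas CYP81F2 lies on chromosome 5 at 23187840 to 23189902. The 3 neighbours thus changed by 1.63, 0.57 and -0.24.

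IGMT1 to IGMT4, whose products methylate the hydroxylated ring, form a cluster on the minus strand of chromosome 1. IGMT1 lies at 7386762 to 7388512, IGMT3 at 7389981 to 7391603, IGMT2 at 7395179 to 7396823 and IGMT4 at 7398814 to 7400736. IGMT2 (AT1G21120) rose from 30.8, 45.6 and 33.2 FPKM to 371, 339.9 and 376 FPKM. This was 9.91-fold (log2 change 3.29, SE 0.13, adjusted p = 7.83e-08, limma), and the groups stood far apart. IGMT1 (AT1G21100) was at 115, 174 and 139 FPKM in controls and 247, 212 and 274 FPKM in Al samples, a smaller rise of 0.79 (SE 0.15, adjusted p = 0.00146). The order of both genes was therefore opposite in the 2 groups, with a ratio of IGMT1 to IGMT2 of 3.91 ± 0.25 (SD, n = 3) in controls and 0.67 ± 0.05 in Al samples (exact two-sided permutation p = 0.1, adjusted 0.25). IGMT2 shares 35.4% of its 50-base stretches with other genes, nearly all with IGMT3 (35.0%), and IGMT1 shares 12.1%, so fragments may have been divided between these copies. Summed over IGMT1 to IGMT4, the level was 269.6 ± 53.1 FPKM in controls and 1078 ± 82.6 FPKM in Al samples, or 4.0-fold. Only if each shared fragment was counted once would this sum depend little on that division. How such fragments were counted is not given in the sources used here.

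In the camalexin branch, CYP71A12 (AT2G30750) showed the largest change of all members. It was near the lower end of detection in controls, at 0.75, 0.59 and 1.73 FPKM, and at 74.1, 70.8 and 66 FPKM in Al samples. The ratio of means was 68.7 (log2 change 5.18, SE 0.18, adjusted p = 3.34e-08, limma), the 21st largest rise among the 3933 genes called higher, and 19 fragments in the lowest control give that value a counting error of 23.0%. CYP71A12 converts the oxime to indole-3-acetonitrile and also serves other indolic products. CYP71B15 (PAD3, AT3G26830), which carries out the final steps of camalexin synthesis, stood at 4.25, 5.21 and 3.90 FPKM in controls and at 7.78, 9.23 and 8.25 FPKM in Al samples. Its rise of 0.79 (SE 0.11, adjusted p = 0.000301) was without overlap but left it far below CYP71A12 in level. CYP82C2, a hydroxylase of a cyanogenic indolic branch, was listed at 0 to 0.11 FPKM in controls and 0 to 0.06 FPKM in Al samples, at most 4 fragments, so it was not tested and no difference was detectable at this depth.

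PEN2 and PEN3, which act together against pathogens, both rose. PEN3 (AT1G59870) exports indolic compounds across the plasma membrane and was at 109, 122 and 116 FPKM in controls and at 226, 214 and 202 FPKM in Al samples. Its log2 change was 0.88 (SE 0.07, adjusted p = 8.1e-06, limma), and no samples overlapped. PEN2 (AT2G44490), the atypical myrosinase that cleaves indole glucosinolates inside living cells, rose by 0.37 (SE 0.07, adjusted p = 0.00165), with 78.0 to 87.8 FPKM in controls and 100.4 to 111 FPKM in Al samples.

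Of the beta-glucosidases and myrosinases of the root, 4 of 5 fell (80%, against 38.5% of all genes) and none rose. TGG4 and TGG5 encode the root myrosinases and lie on chromosome 1 at 17491731 to 17494779 and 19087384 to 19090523. TGG4 (AT1G47600) was at 74.4, 75.7 and 60.6 FPKM in controls and at 21.7, 28.4 and 26.0 FPKM in Al samples (log2 change -1.44, SE 0.11, adjusted p = 8.49e-06, limma). TGG5 (AT1G51470) was at 82.3, 72.4 and 71.3 FPKM in controls and at 24.1, 33.1 and 31.6 FPKM in Al samples (log2 change -1.33, SE 0.11, adjusted p = 1.4e-05). In both, every Al sample lay below every control, and the ratio of TGG4 to TGG5 was 0.93 ± 0.10 (SD, n = 3) in controls and 0.86 ± 0.04 in Al samples (exact two-sided permutation p = 0.4). The 2 transcripts share 32.4% and 30.9% of their 50-base stretches, so the split between them is uncertain. Their sum fell from 146 ± 12.6 to 55.0 ± 8.17 FPKM, a ratio of 0.378. As for the IGMT genes, this sum would depend little on the split only if each shared fragment was counted once, which is not known here.

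PYK10, BGLU21 and BGLU22 are the beta-glucosidases of ER bodies, storage structures of root cells. PYK10 (AT3G09260) was among the most abundant transcripts of the roots, 10th of all genes in controls, at 2546, 2771 and 1563 FPKM in controls and 2057, 1969 and 1969 FPKM in Al samples. The change of -0.16 had an interval from -0.60 to 0.28 (adjusted p = 0.513, limma) and depended on single control samples. Without control sample 3 the change of PYK10 was -0.41 (adjusted p = 0.0152), and without control sample 2 it was 0.002 (adjusted p = 0.994). BGLU21 (AT1G66270) fell from 423, 480.1 and 432 FPKM to 261, 271 and 198 FPKM (log2 change -0.88, SE 0.12, adjusted p = 0.000226), with no overlap. BGLU22, its neighbour on chromosome 1, changed by -0.43 (adjusted p = 0.0326) with overlapping groups, and the call was lost under median-ratio scaling (adjusted p = 0.179), with no filter, and without control sample 1 or 2 or Al sample 1 or 2. Without control sample 2 the change was -0.26 (adjusted p = 0.0926). Among the 7 root markers tested, GL2 and COBL9, genes of the outer root tissues, fell most. GL2, which is expressed in non-hair epidermal cells, fell from 7.6 to 1.90 FPKM (log2 change -1.57) and COBL9, a root hair gene, from 8.29 to 2.69 FPKM (log2 change -1.33). PLT1 (-0.854), PLT2 (-0.495) and PIN2 (-0.33) were also called lower, and SCR (-0.121) and SHR (0.099) were not called. The part of these markers in the result was not tested.

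The balance between related genes was compared for 5 pairs, and CYP79B2 with CYP79B3 and IGMT1 with IGMT2 were the pairs without overlap between the groups. For BGLU21 to BGLU22 the ratio was 1.27 ± 0.22 (SD, n = 3) in controls and 0.94 ± 0.24 in Al samples, with overlap (exact two-sided permutation p = 0.2, adjusted 0.333). No pair could pass at this number of samples.

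**Figure D5:**
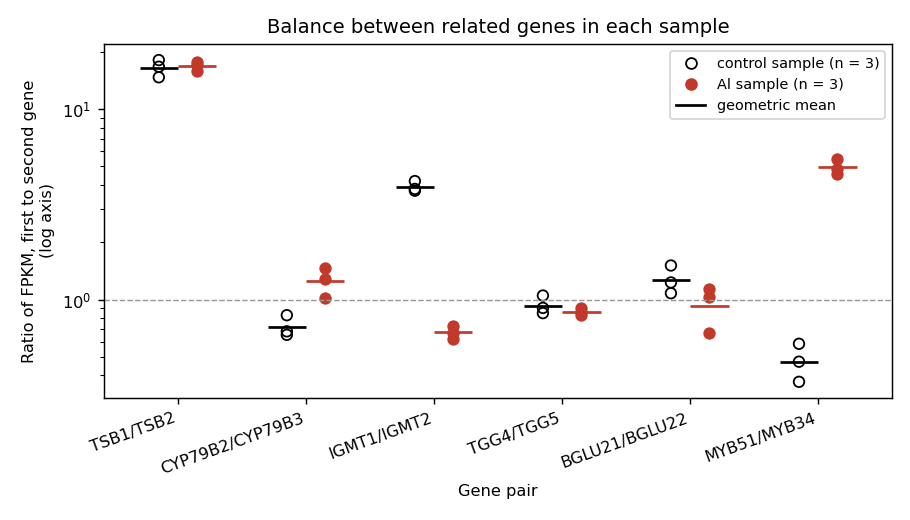
Ratio of FPKM between the genes of each pair in each sample on a log axis, for 3 control samples (open) and 3 Al samples (filled), with lines at the geometric means and the dashed line at equal levels. The ratio IGMT1/IGMT2 goes from 3.73 to 4.19 in controls to 0.62 to 0.73 in Al samples, while TSB1/TSB2 overlaps. MYB51/MYB34 was picked after the values were seen.

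Beyond the members, 50 of 51 further genes of the same and adjoining pathways were in the table and 45 were tested, of which 14 were higher (31.1%) and 17 lower (37.8%), shares to be read against 21.3% and 38.5% of all genes. NAC042, FOX1 and GSTU4 reached 1 FPKM in at most 1 control sample and so passed the filter mainly through the Al samples, and 11 genes were higher and 16 lower when every sample had to reach 1 FPKM. Of 15 other indolic genes, 9 were higher (60%, against 21.3% of all genes), 1 was lower (6.67%, against 38.5%) and 5 were not called. The lower gene was ABCG34 (log2 change -0.52, adjusted p = 0.000104 by limma). ABCG34 and IGMT5 were named after their values were seen. GSTF6, a glutathione transferase linked to camalexin, rose from 14.6 to 689 FPKM (log2 change 5.49, SE 0.13, adjusted p = 4.65e-09). The neighbours of IGMT2 in the cluster rose as well, IGMT4 from 5.07 to 81.8 FPKM (3.78) and IGMT3 from 85.2 to 389 FPKM (2.20), and the sequence that IGMT3 shares with IGMT2 applies here too. IGMT5 (AT1G76790) was not called, at 17.9 FPKM in controls and 18.0 FPKM in Al samples (log2 change 0.03, adjusted p = 0.87 by limma). FOX1 (2.37), an oxidase of the cyanogenic branch, GGT1 (1.36), a gamma-glutamyl transpeptidase, GSTF10 (1.30, from 389 to 959 FPKM), GSTU4 (1.24) and PCS1 (1.24), the phytochelatin synthase, also rose. Both regulators with a change of at least 1 rose. WRKY33, an activator of camalexin genes, went from 44.1 to 377 FPKM (log2 change 3.07, SE 0.12, adjusted p = 8.51e-08), and NAC042, another regulator of camalexin synthesis, from 0.80 to 35.0 FPKM (log2 change 4.33, SE 0.14, adjusted p = 2.75e-08).

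By contrast, all 7 other tryptophan genes tested were called lower (100%, against 38.5% of all genes). These genes fell by 0.27 to 0.71 on the log2 scale, where the median gene changed by -0.13. They include PAI1 (-0.50), PAI2 (-0.53) and PAI3 (-0.71), the isomerases of the step between TRP1 and IGPS, and ASA2 (-0.27) and ASB2 (-0.37), the second copies of the anthranilate synthase subunits, whose partners ASA1 and ASB1 rose. These 5 were named after their values were seen. The call of ASA2 held in 7 of 15 alternatives and that of ASB2 in 14. TSBtype2, another of the 7 (-0.27), kept its call in 9 and was also named after its value was seen. Among the other regulators, MYC3 (-0.51), MYC4 (-0.63) and IQD1 (-0.56) were lower and MYC2 (-0.13, adjusted p = 0.146) and OBP2 (0.19, adjusted p = 0.0737) were not called, and these regulators were also named after their values were seen.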

How the data were processed

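RNA-seq values of 3 Al-treated and 3 control WT root samples were used, grouped and numbered by their labels. The authors deposited FPKM, normalized for transcript length and mapped fragments, with replicates kept apart. The aligner, the counting tool and the use of strand are not given in the sources used here. Columns with the authors' own comparison (log2 ratio, p-value and q-value, as deposited) were left out, as were 6 further sample columns that repeat the FPKM values. Log2(FPKM + 1) was tested with limma 3.58.1 (mean-variance trend, R 4.3.3) for 18463 genes with at least 1 FPKM in at least 3 samples. P-values were adjusted by Benjamini-Hochberg over all of them and called at 0.05. A change on the log2(FPKM + 1) scale understates that of low genes, and folds given are ratios of mean FPKM.

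The members and gene lists were chosen with earlier results of these data known. Values by sample and tests are given for members called with a log2 change of at least 1 in size and for the largest change of each role, other members mostly by ranges and counts, and at most 10 other pathway genes with a change of at least 1, plus ALMT1. Values by sample of TSB1, MYB34, CYP83B1, IGMT1, CYP71B15, PYK10 and BGLU21 were added after the values were seen. Gene pairs were compared by exact permutation, which with 3 samples against 3 cannot go below p = 0.1.

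Depth was estimated from low FPKM values, 81.8% to 86.7% of which equalled whole fragments to within 0.15 (30% by chance), and gives counting error only. Gene positions, antisense genes, shared 50-base stretches and promoters were taken from TAIR10.1 (RefSeq) with Python 3.11.15, since 23857 of 24174 genes in both had the same start, end and chromosome. The depth estimate and the limma test were tested on simulated data. Alternatives were a pseudocount of 0.1, other filters, no trend, 3 other scalings, a replicate block with and without a GC correction, and each sample left out in turn.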

Additional observations from a re-analysis of the deposited data

How the results depend on the processing

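Over 15 alternatives, the members called higher numbered 16 to 19 and those called lower 5 to 9, and 16 higher and 4 lower members kept their call in every alternative that tested them. MYB122 and CYP71A12, among these 16, were not tested when every sample had to reach 1 FPKM. The calls that were lost in some alternative were those of ASA1, MYB34, CYP79B3, CYP81F1, CYP81F4 and BGLU22. Members called lower were 5 with no filter and 5 under median-ratio scaling, and counting only changes of 1 or more there were 7 higher and 2 lower. Leaving out each sample in turn gave 16 to 18 higher and 5 to 9 lower members. Signs turned only for members that were not called, and the cause was not tested. TSB1 went to 0.067 and TSB2 to 0.036 under median-ratio scaling and TSB2 to 0.015 under quantile normalization. CYP79B2 went to 0.010 under median-ratio scaling. With each sample left out in turn, CYP79B2 ranged from -0.416 (without control sample 3) to 0.016 (without control sample 1), SUR1 from -0.007 (without control sample 3) to 0.212 (without control sample 2), PYK10 from -0.411 (without control sample 3) to 0.002 (without control sample 2), and the log2 difference of the TSB1/TSB2 ratio from -0.055 (without control sample 3) to 0.097 (without control sample 2). With 2 samples in a group, the pooled spread of limma stood in for the missing one.

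The deviations of same-numbered samples correlated at -0.251, -0.037 and -0.224 across genes, and those of differently numbered samples at -0.146 to 0.317. Across all genes the numbers thus showed no pairing, but 3 samples per group cannot exclude it. With a replicate block, 18 members were higher and 9 lower, including the 18 and 8 called without it, UGT74B1 was added (adjusted p = 0.0347), and 3648 and 6319 of all genes were called in place of 3933 and 7106. With a replicate block and a GC correction, 19 members were higher and 7 lower. MYB122, CYP71A12 and CYP82C2 had the fewest fragments among the members, with 21, 19 and 0 in their lowest samples. As a share of the control mean, the SD of CYP71A12 was well above its largest counting error, and that of MYB122 somewhat above. The spread between control samples thus also limits the precision of these genes.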

Other observations

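Aliphatic glucosinolates are made from methionine by related enzymes. Of 8 of their genes tested, 2 were higher (25%, close to the 21.3% of all genes) and none lower (38.5% of all genes), with a median log2 change of 0.16 (-0.13 for all genes). MYB28, their main activator in this list, was at 23.6, 29.3 and 18.8 FPKM in controls and 35, 45 and 30 FPKM in Al samples (log2 change 0.60, adjusted p = 0.0137 by limma). SOT17, a sulfotransferase, changed by 0.60 (adjusted p = 0.046) with overlapping groups, and its call held in 7 of 15 alternatives. MYB29, TGG1 and TGG2 were listed at 0 to 0.05 FPKM in all samples. Control sample 3 was the lowest control and Al sample 2 the highest Al sample for all 8 aliphatic genes tested, as for most of the tryptophan and core genes. Over all genes tested these shares were 30.7% and 38.3%.

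The ER body genes outside the beta-glucosidases were lower in all 3 cases tested (100%, against 38.5% of all genes). NAI2, a structural protein of ER bodies, went from 372 to 177 FPKM (log2 change -1.07, adjusted p = 2.62e-05), PBP1, which binds PYK10, from 1091 to 610.1 FPKM (-0.82, adjusted p = 0.00383) and NAI1, the transcription factor that controls them, from 58.2 to 32.6 FPKM (-0.80, adjusted p = 0.0024). Of 5 genes of sulfate supply and glucosinolate transport, 3 were lower (60%, against 38.5% of all genes) and 1 was higher (20%, against 21.3%). The lower ones were the glucosinolate transporters GTR1 (-0.71), GTR2 (-0.54) and GTR3 (-0.59). The sulfate-activating kinase APK2 was higher by 0.54 (adjusted p = 0.0481 by limma), a call that held in 7 of 15 alternatives. These genes were named after their values were seen.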
